A study of Homo sapiens with 8 samples.

Results

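Genes that ERK (extracellular signal-regulated kinase) switches on and that feed back on its pathway were followed in MM1.S and NCI-H929, 2 human cell lines derived from multiple myeloma. The set was chosen by symbol and holds 10 genes: the dual-specificity phosphatases DUSP4, DUSP5 and DUSP6, the Sprouty proteins SPRY1, SPRY2 and SPRY4, the Sprouty-related SPRED1 and SPRED2, and the transcription factors ETV4 and ETV5. A row of the deposited array table carried the symbol for 7 of the 10, out of 14884 named genes in all. SPRY1, SPRED1 and SPRED2 had no named row and were not analysed here. Where a gene had more than 1 row, the row with the highest mean over all arrays was taken, which applied to DUSP5 among these genes. All 7 passed the filter on low values, a mean log2 level above 3.045, which left 12734 genes to test. Their lowest value on any array was 3.33, for SPRY2 in MM1.S.

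Growth factor receptors signal through RAS, RAF and MEK to ERK, which enters the nucleus and drives the transcription of short-lived genes. Several of these genes encode inhibitors of the same pathway. DUSP phosphatases remove the activating phosphates from ERK, while Sprouty and SPRED proteins act upstream, between the receptor and RAF. ETV4 and ETV5 are ETS-family factors whose genes are held down by the repressor CIC until ERK signalling relieves it. Levels of these transcripts are widely used as a readout of ERK output. NCI-H929 is known for a translocation that brings the receptor FGFR3 under an immunoglobulin enhancer.

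Total RNA of MM1.S or NCI-H929 cells carrying either a scramble short hairpin (shSCR in the labels) or a short hairpin against the NAD-dependent chromatin deacetylase SIRT6 (shSIRT6) was measured on Human Gene 2.0 ST arrays from Affymetrix, with 2 arrays for each of the 4 groups. The cells of all groups were cultured alike in RPMI-1640 medium with fetal bovine serum. The labels do not give the hairpin sequences, how and when they were delivered, or whether clones were picked. They also leave unsaid whether the paired arrays of each group are separate cultures, and p-values therefore rest on an array-to-array spread that could be purely technical. An array level of a whole culture also cannot tell apart more RNA per cell from more cells with that RNA.

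Array medians ran from 3.88 to 3.97 on the log2 scale, and arrays of 1 group correlated at 0.989 to 0.992 over all rows. The 8 plasma cell markers with a named row had a mean log2 level of 8.56 to 8.65 on the MM1.S arrays and 9.29 to 9.37 on the NCI-H929 arrays. Against this stood 4.13 to 4.48 for 6 markers of T and NK cells, 3.45 to 3.68 for 8 of monocytes (5 above the filter level) and 2.90 to 3.14 for 3 of stromal cells (1 above it), with the stromal genes DCN and LUM under the filter level on every array. Of the plasma cell markers, FCRL5 read 2.72 to 3.35 in MM1.S and 6.87 to 7.41 in NCI-H929. Both shSIRT6 arrays of MM1.S were under the filter level for it. SIRT6, the target of the hairpin, read 6.09 and 5.88 on the scramble arrays of MM1.S and 5.60 and 5.78 on its shSIRT6 arrays. The NCI-H929 arrays read 6.53 and 6.97 against 6.25 and 6.31. The arrays did not overlap in either line, but neither difference passed the test (limma, Benjamini-Hochberg adjusted p = 0.355 and 0.276), so the target checks the construct labels only weakly.

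The promoters of DUSP6 and SPRY4, members that were higher in NCI-H929 with either construct, are shown beside that of SPRY2, the member that passed no test. The RefSeq promoter table held 6 of the 10 genes, of which only these 3 have array values. Each stretch covers 250 bases before to 50 bases after a transcript start on GRCh38.p14, and all 3 are read from the minus strand: DUSP6 at chr12:89352452-89352751, SPRY4 at chr5:142324198-142324497 and SPRY2, at the most upstream of its 3 listed starts, at chr13:80341077-80341376. Capitals mark a match on either strand to CCGGAA, a core bound by ETS factors. The AP-1 site TGANTCA and the cyclic AMP response element TGACGTCA were searched as well. Of the CIC octamer only the form TGAATGNA was searched, and its other forms were not.
DUSP6: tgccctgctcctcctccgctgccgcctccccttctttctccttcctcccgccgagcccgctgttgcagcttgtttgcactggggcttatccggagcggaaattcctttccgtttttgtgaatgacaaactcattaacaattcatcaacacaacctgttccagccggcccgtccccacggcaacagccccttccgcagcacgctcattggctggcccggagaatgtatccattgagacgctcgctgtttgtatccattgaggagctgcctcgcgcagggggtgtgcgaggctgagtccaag
SPRY4: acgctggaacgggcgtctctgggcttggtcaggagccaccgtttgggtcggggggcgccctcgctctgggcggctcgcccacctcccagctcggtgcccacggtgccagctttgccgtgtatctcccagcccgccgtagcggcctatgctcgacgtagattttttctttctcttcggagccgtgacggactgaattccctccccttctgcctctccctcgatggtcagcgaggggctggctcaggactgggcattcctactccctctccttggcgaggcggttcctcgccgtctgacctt
SPRY2: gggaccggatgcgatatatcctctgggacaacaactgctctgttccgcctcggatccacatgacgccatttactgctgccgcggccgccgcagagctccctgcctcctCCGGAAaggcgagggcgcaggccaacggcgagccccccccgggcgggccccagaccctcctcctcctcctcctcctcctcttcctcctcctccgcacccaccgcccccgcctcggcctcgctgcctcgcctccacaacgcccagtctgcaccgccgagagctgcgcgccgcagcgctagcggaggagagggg
The SPRY2 stretch held 1 match, to CCGGAA. The DUSP6 and SPRY4 stretches held none (0) to any of the 4 patterns, as did the stretches at the other starts of SPRY2. Another form of the CIC octamer, starting with TC in place of TG, was not searched. The DUSP6 stretch as printed holds that form on the opposite strand, as tccattga within gtatccattgagacg and within gtatccattgaggag. A count of 0 for TGAATGNA therefore does not mean that CIC sites are absent, and binding of CIC was not tested. Of 35116 promoters of this length, 17.2% held CCGGAA, 7.71% TGANTCA, 3.86% TGAATGNA and 1.85% TGACGTCA. These matches describe letters in a short window and nothing about the factors.

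The 2 lines differed in most of these genes, and the difference was there with either construct. On the scramble arrays 6 of the 7 genes differed between the lines (limma, Benjamini-Hochberg adjusted p below 0.05), with DUSP5, DUSP6, SPRY4, ETV4 and ETV5 higher in NCI-H929 and DUSP4 lower. Among all genes tested 38.3% differed, 20.0% higher and 18.3% lower in NCI-H929. On the shSIRT6 arrays, which are separate arrays, the same 6 genes differed in the same directions, against 37.9% of all genes, 18.4% higher and 19.5% lower. The median log2 difference over the 7 genes was 0.985 with scramble and 1.27 with shSIRT6, beside 0.03 and 0 over all genes. Of the 8 plasma cell markers, 4 were higher and 1 lower in NCI-H929 with either construct, and their part in these differences was not tested. For all 7 genes the 4 arrays of 1 line did not overlap the 4 of the other, which held for 41.5% of all genes, beside 67.9% for the scramble arrays alone and 65.7% for the shSIRT6 arrays alone.

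**Figure D1:**
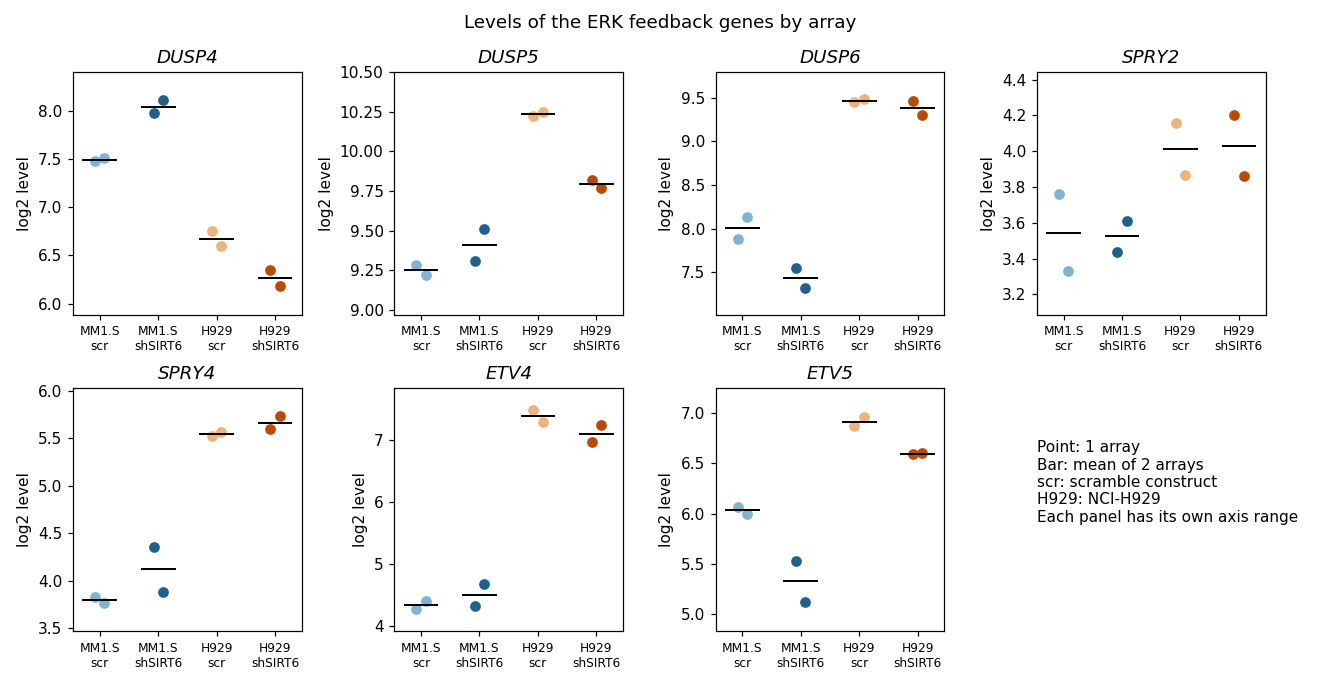
Log2 level of each ERK feedback gene with an array row (y axis, own range per panel) on the 8 arrays, grouped by line and construct (x axis); points are arrays and bars the means of 2 arrays. NCI-H929 arrays lie above all MM1.S arrays for DUSP5, DUSP6, SPRY2, SPRY4, ETV4 and ETV5 and below them for DUSP4.

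Of the transcription factors, ETV4 had the largest difference of the set. Its log2 levels were 4.28 and 4.41 in MM1.S with scramble and 4.33 and 4.67 with shSIRT6. Those in NCI-H929 were 7.47 and 7.28 with scramble and 6.96 and 7.23 with shSIRT6. All 4 NCI-H929 arrays thus lay far above all 4 MM1.S arrays, while the constructs lay close together within each line. The log2 difference between the lines was 3.03 ± 0.154 (SE) with scramble, or 8.17-fold, and 2.595 ± 0.154 with shSIRT6, or 6.04-fold (limma, Benjamini-Hochberg adjusted p = 9.46e-06 and 2.16e-05). By size it ranked 130th among the 12734 genes with scramble.

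ETV5, its close relative, differed less between the lines. It had 6.07 and 6.0 in MM1.S with scramble and 5.53 and 5.12 with shSIRT6, against 6.87 and 6.96 and then 6.59 and 6.60 in NCI-H929. The order of the groups ran from NCI-H929 with scramble to NCI-H929 with shSIRT6, MM1.S with scramble and MM1.S with shSIRT6, with no overlap between any neighbours. The difference between the lines was 0.88 ± 0.141 with scramble and 1.27 ± 0.141 with shSIRT6 (limma, adjusted p = 0.00197 and 0.000339).

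DUSP6, a cytoplasmic phosphatase specific for ERK, was the phosphatase most raised in NCI-H929. Its log2 levels were 7.88 and 8.13 in MM1.S with scramble and 7.55 and 7.32 with shSIRT6. Those in NCI-H929 were 9.45 and 9.49 with scramble and 9.46 and 9.30 with shSIRT6. The NCI-H929 arrays were high with either construct, and the shSIRT6 arrays of MM1.S were the lowest. The log2 difference was 1.465 ± 0.131 (SE) with scramble and 1.945 ± 0.131 with shSIRT6, which is 2.76-fold and 3.85-fold (limma, adjusted p = 0.000133 and 3.58e-05).

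DUSP5, a nuclear phosphatase of ERK, had 9.28 and 9.22 in MM1.S with scramble and 9.31 and 9.51 with shSIRT6. Its NCI-H929 levels were 10.22 and 10.25 with scramble and 9.82 and 9.77 with shSIRT6. The scramble arrays of NCI-H929 stood highest, and the shSIRT6 arrays of that line lay between them and MM1.S. The lines differed by 0.985 ± 0.104 with scramble (limma, adjusted p = 0.000275) and by 0.385 ± 0.104 with shSIRT6 (adjusted p = 0.0218). The second call was lost in 5 of 17 alternatives: with only the arrays compared (adjusted p = 0.0657), with the replicate number as a block (0.0509), and in fits lacking shSIRT6 replicate 1 of MM1.S (0.285, adjusted p = 0.121) or shSIRT6 replicate 1 (0.0854) or 2 (0.0583) of NCI-H929. The second DUSP5 row, at a mean log2 level of 6.591 against 9.672 for the row used, gave a line difference of 0.995 with scramble, close to that of the first.

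DUSP4, a nuclear phosphatase that acts on ERK and on other MAP kinases, went the other way. Its log2 levels were 7.48 and 7.51 in MM1.S with scramble and 7.98 and 8.11 with shSIRT6. Those in NCI-H929 were 6.75 and 6.60 with scramble and 6.35 and 6.18 with shSIRT6. The 4 groups did not overlap, with the shSIRT6 arrays at both ends of the order. The difference between the lines was −0.82 ± 0.111 (SE) with scramble and −1.78 ± 0.111 with shSIRT6, which is 1.77-fold and 3.43-fold lower in NCI-H929 (limma, adjusted p = 0.000878 and 2.65e-05).

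Of the upstream inhibitors, SPRY4 was higher in NCI-H929 and SPRY2 did not pass. SPRY4 had 3.83 and 3.77 in MM1.S with scramble and 4.36 and 3.88 with shSIRT6, against 5.52 and 5.57 and then 5.60 and 5.73 in NCI-H929. The arrays of MM1.S were low, at 3.77 to 4.36 with the filter level at 3.045, and those of NCI-H929 well above them. The difference was 1.745 ± 0.157 with scramble and 1.545 ± 0.157 with shSIRT6 (limma, adjusted p = 0.000136 and 0.000228). With scramble this is 3.35-fold and with shSIRT6 2.92-fold.

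SPRY2 read low on all arrays, from 3.33 to 4.20, with the filter level at 3.045. It had 3.76 and 3.33 in MM1.S with scramble, 3.44 and 3.61 with shSIRT6, and on the NCI-H929 arrays 4.16 and 3.87 with scramble and 4.20 and 3.86 with shSIRT6. The NCI-H929 arrays were the higher 4, but the arrays within a group also lay apart, with a pooled SD of 0.227 over the 4 groups. That difference was 0.47 with a 95% interval from 0.03 to 0.91 with scramble, and 0.505 with an interval from 0.07 to 0.94 with shSIRT6 (limma, adjusted p = 0.0893 and 0.0715). Leaving out single arrays gave 0.255 to 0.685 for the first: 0.685 (adjusted p = 0.0437) when replicate 1 of the MM1.S scramble arrays was left out, and 0.255 (adjusted p = 0.394) when replicate 2 was. For the second they gave 0.335 to 0.675, the lowest when replicate 1 of the NCI-H929 shSIRT6 arrays was left out (adjusted p = 0.303).

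**Figure D2:**
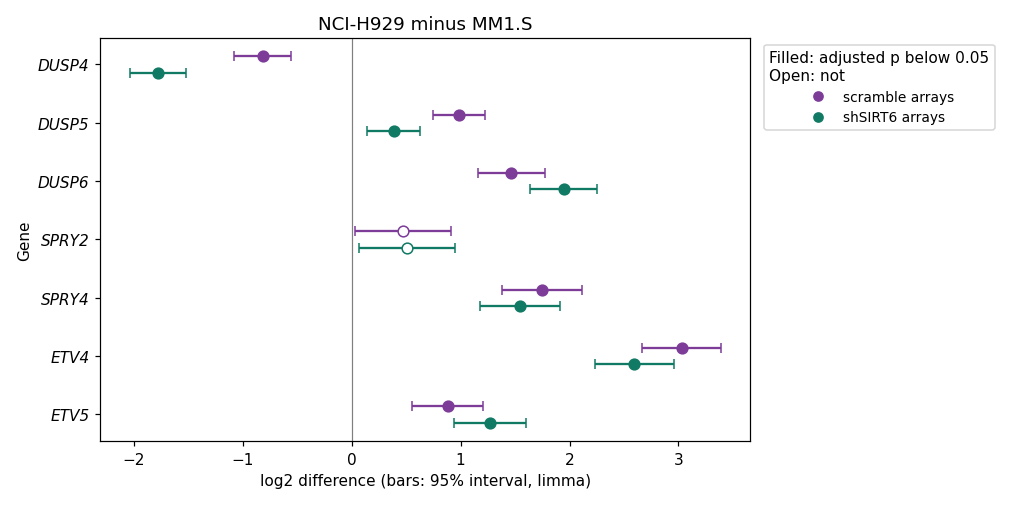
Log2 difference NCI-H929 minus MM1.S (x axis) for each gene (y axis), on the scramble and on the shSIRT6 arrays, 2 arrays per group; bars are 95% intervals from limma, and filled points have an adjusted p below 0.05. ETV4 lies farthest to the right at 3.03 and 2.595, DUSP4 alone lies left of 0, and SPRY2 is open.

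With the hairpin against SIRT6 none (0) of the 7 genes passed the threshold in either line. In MM1.S 0 of 7 were called (limma, Benjamini-Hochberg adjusted p below 0.05), against 1.33% of all genes, and 3 had an unadjusted p below 0.05, against 19.6% of all genes. In NCI-H929 0 of 7 were called, against 0.0236%, and 2 had an unadjusted p below 0.05, against 14.5%. The median log2 change was 0.155 for MM1.S, against −0.28 for NCI-H929, beside 0.005 and −0.045 over all genes. The arrays of the constructs did not overlap for 5 of the 7 genes in each line, where the share of all genes was 50.7% (MM1.S) and 46.6% (NCI-H929).

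The members with the lowest p in MM1.S had values in both directions. ETV5 had a log2 change of −0.71 ± 0.141 (SE) and DUSP6 −0.57 ± 0.131, while DUSP4 had 0.55 ± 0.111 (limma, adjusted p = 0.0636, 0.0849 and 0.0649). The array values above show both shSIRT6 arrays below both scramble arrays for ETV5 and DUSP6 and above them for DUSP4. These 3 changes lay close to the threshold and passed it under other settings. When the prior variance was allowed to follow the level, all 3 were called (adjusted p = 0.0089, 0.00338 and 0.00596), as were 7.48% of all genes; with the stricter filter ETV5 and DUSP4 were called (0.0453 each), as were 3.05% of all genes. The other 4 genes had changes of 0.32 ± 0.157 for SPRY4, 0.16 ± 0.104 for DUSP5, 0.155 ± 0.154 for ETV4 and −0.02 ± 0.188 for SPRY2. The largest change their 95% intervals allow is 0.69, for SPRY4. Single arrays moved these values: SPRY4 was 0.08 without shSIRT6 replicate 1 and 0.56 without replicate 2, and DUSP5 was 0.26 and 0.06.

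In NCI-H929 the 2 lowest p values belonged to phosphatases, both with lower values under shSIRT6. DUSP5 had a log2 change of −0.44 ± 0.104 (SE) and DUSP4 −0.41 ± 0.111 (limma, adjusted p = 0.203 and 0.22). For DUSP5 the second row gave −0.485. DUSP5 was called when the prior variance followed the level (adjusted p = 0.00756), as were 1.52% of all genes. ETV5 had −0.32 ± 0.141, ETV4 −0.28 ± 0.154 and DUSP6 −0.09 ± 0.131, and the Sprouty genes 0.12 ± 0.157 for SPRY4 and 0.015 ± 0.188 for SPRY2 (adjusted p from 0.355 for ETV5 to 0.978 for SPRY2). For DUSP6 the 95% interval ran from −0.40 to 0.22.

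**Figure D3:**
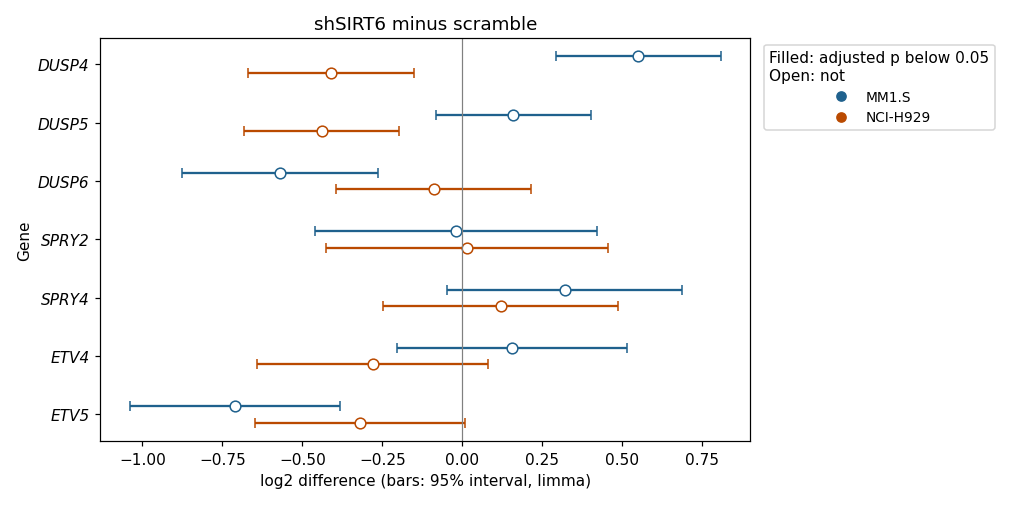
Log2 difference shSIRT6 minus scramble (x axis) for each gene (y axis) in MM1.S and in NCI-H929, 2 arrays per group; bars are 95% intervals from limma, and open points have an adjusted p of 0.05 or more. All points are open, and DUSP4 lies at 0.55 in MM1.S and at −0.41 in NCI-H929.

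Averaged over the lines, 0 of 7 genes were called (limma), against 0.0864% of all genes, with 2 at an unadjusted p below 0.05 against 21.3%. ETV5 had the lowest p, with a mean log2 change of −0.515 ± 0.0994 (SE) and lower values on the shSIRT6 arrays of both lines (adjusted p = 0.0772). DUSP6 followed at −0.33 ± 0.0927 (adjusted p = 0.122). With the prior variance following the level both were called (adjusted p = 0.0107 and 0.0145), as were 7.15% of all genes.

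The test of whether the hairpin's effect differed between the lines called 0 of 7 genes (limma), against 0.204% of all genes, with 3 at an unadjusted p below 0.05 against 13.8%. DUSP4 came closest. Its effect in NCI-H929 minus that in MM1.S was −0.96 ± 0.156 (adjusted p = 0.083), and it ranked 57th of all genes by p. DUSP5 had −0.60 ± 0.147 (adjusted p = 0.189) and DUSP6 0.48 ± 0.185 (adjusted p = 0.326). DUSP4 and DUSP5 were called with the prior variance following the level (0.00328 and 0.00383), as were 3.38% of all genes. This contrast uses the same arrays as the line differences on scramble and on shSIRT6 arrays, so it is the gap between those values and no further evidence.

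Other genes of the pathway were taken from lists grouped by role and, like the members, chosen with earlier results of these data known, so their counts are no independent evidence. A list of 18 tested genes tied to ERK output holds genes that ERK signalling can raise and also the repressor CIC itself, which had a log2 difference of 0.095 and was not called. Of the 18, 12 were higher in NCI-H929 on the scramble arrays and none (0) lower, with a median log2 difference of 0.838, and on the shSIRT6 arrays 11 were higher and 0 lower, with a median of 0.588. Over all genes 20.0% were higher and 18.3% lower with scramble, with a median of 0.03. With shSIRT6 these were 18.4%, 19.5% and 0. The 5 with the lowest p on the scramble arrays were CCND1 (cyclin D1) at 2.555 ± 0.109 (SE), the immediate-early gene IER2 at 3.58 ± 0.302, the zinc finger factors EGR1 at 1.535 ± 0.137 and KLF10 at 1.045 ± 0.101, and MYC at 0.815 ± 0.0943 (limma, adjusted p from 4.63e-06 to 0.00043). On the shSIRT6 arrays EGR1 (2.22), CCND1 (1.755), IER2 (3.265), ERRFI1, an inhibitor of the EGF receptor (1.375), and MYC (0.70) had the lowest p. Averaging its rows lowered EGR1 on the scramble arrays from 1.535 to 0.9575 (adjusted p = 0.00033). IER2 varied within MM1.S, with 4.90 and 4.11 on the scramble arrays, but lay at 8.09 and 8.08 in NCI-H929.

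Of 9 tested close relatives of the members, 1 was higher and 2 lower in NCI-H929 on the scramble arrays, with a median of 0.075, and on the shSIRT6 arrays 0 were higher and 2 lower, with a median of −0.325. Over all genes the shares were 20.0% higher and 18.3% lower with scramble and 18.4% and 19.5% with shSIRT6, and the difference between the lists was not tested. DUSP16, a phosphatase of JNK and p38, was lower there, with log2 differences of −1.39 ± 0.134 with scramble and −1.36 ± 0.134 with shSIRT6 (limma, adjusted p = 0.000184 and 0.000201). DUSP10, which also acts on JNK and p38, was higher on the scramble arrays by 0.61 ± 0.154 (adjusted p = 0.0161), a call lost when replicate 1 of the NCI-H929 scramble arrays (0.0925) or replicate 2 of those of MM1.S (0.089) was left out. SPRY3 was lower, at −0.385 ± 0.0972 (adjusted p = 0.0161), but at −0.17 when its rows were averaged (adjusted p = 0.227). Its call was lost with the variance trend (0.0806), and it was also lost without any 1 of the 4 scramble arrays (adjusted p from 0.05 to 0.0957).

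Of 15 tested receptors and adaptors 5 were higher and 2 lower in NCI-H929 on the scramble arrays, counts near the 20.0% and 18.3% over all genes. FGFR3 had log2 levels of 4.65 and 4.62 in MM1.S with scramble and 4.56 and 4.89 with shSIRT6, against 6.77 and 6.58 and then 6.28 and 6.31 in NCI-H929. It was thus higher in NCI-H929 with no overlap, by 2.04 ± 0.132 with scramble and 1.57 ± 0.132 with shSIRT6 (limma, adjusted p = 2.93e-05 and 9.72e-05). The receptors MET (2.205 ± 0.262) and INSR (0.65 ± 0.0946) were higher too, whereas the adaptors GAB1 (−0.985 ± 0.0952) and GAB2 (−0.935 ± 0.148) were lower. Whether any of these receptors bears on the feedback genes was not tested.

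Of 18 tested genes of the RAS, RAF, MEK and ERK cascade and its regulators 4 were higher and 5 lower on the scramble arrays, again near the shares over all genes. The exchange factor RASGRP3, which loads RAS with GTP, was lower, at −1.735 ± 0.0979, as was the GTPase-activating RASA3, at −0.87 ± 0.103, while PEBP1, an inhibitor of RAF, was higher by 1.00 ± 0.101, LZTR1, which promotes the breakdown of RAS proteins, by 0.895 ± 0.0964 and SHOC2, which helps to activate RAF, by 0.465 ± 0.10 (limma, adjusted p from 1.48e-05 to 0.00808). SHOC2 was not called when replicate 2 of the MM1.S scramble arrays was left out (0.0514). MAPK3, which encodes ERK1, was among the 5 with the lowest p on the shSIRT6 arrays, lower in NCI-H929 at −0.89 ± 0.109 (adjusted p = 0.000541).

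With shSIRT6 against scramble, the 4 pathway lists, with 9, 18, 15 and 18 tested genes, gave 1 call for MM1.S and 0 for NCI-H929 (limma), near the 1.33% and 0.0236% over all genes. Of the 18 ERK output genes, 4 had an unadjusted p below 0.05 in NCI-H929, against 14.5% of all genes. Among them EGR1 was higher, at 1.06 ± 0.137, and CCND1 (−0.68 ± 0.109) and KLF10 (−0.545 ± 0.101) were lower (limma, adjusted p = 0.158, 0.177 and 0.185). By sign, 5 of the 18 were higher and 13 lower. Among the 8 plasma cell markers 1 was called in MM1.S and 0 in NCI-H929. The pathway call was RASA2, a GTPase-activating protein that switches RAS off. Its log2 levels in MM1.S were 9.09 and 8.87 with scramble and 8.03 and 8.10 with shSIRT6, and 8.62 to 8.67 on all NCI-H929 arrays. In MM1.S its log2 level fell by 0.915 ± 0.106 (adjusted p = 0.0165). The call was lost without any 1 of the 4 MM1.S arrays (adjusted p from 0.0576 to 0.115), without either scramble array of NCI-H929 (0.0543), with the replicate block (0.119) and with only the MM1.S arrays in the fit (0.129).

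**Figure D4:**
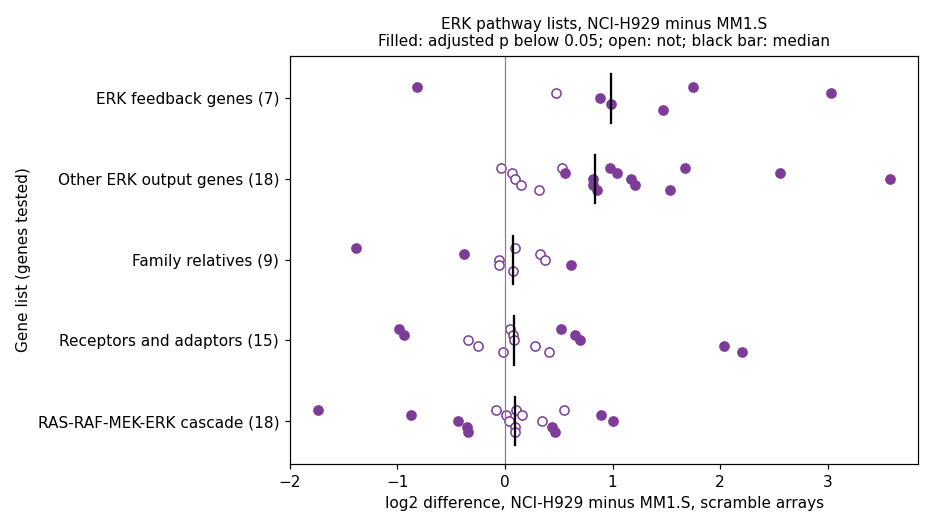
Log2 difference NCI-H929 minus MM1.S on the scramble arrays (x axis) for the tested genes of 5 lists (y axis, number of genes in brackets); each point is a gene, filled where the adjusted p is below 0.05, and the black bar is the median. The medians are 0.985 for the feedback genes and 0.838 for the other ERK output genes, against 0.075 to 0.095 for relatives, receptors and cascade genes.

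By profile over the 8 arrays, each centred on its own mean, the genes nearest to ETV4 were PLPPR2, UBASH3B and ZNF300, at root mean square distances of 0.143, 0.165 and 0.175 on the log2 scale. Those nearest to DUSP6 were SAMD12 (0.0843), DMXL1 (0.11) and WARS1, the tryptophanyl-tRNA synthetase (0.124). ETV4 and DUSP6 were the members with the lowest p over the 4 groups, and these distances describe likeness only.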

How the data were processed

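The authors deposited log2 levels for 48226 transcript clusters on 8 arrays; per the submitters' processing notes these came from RMA, with hg19 and the Transcriptome Analysis Console also named; tool versions were not stated there. Columns of other samples numbered 0. Scanner values were not used here, and rows could therefore not be set against background. The platform annotation gave 1 symbol to 16098 rows, several to 0 and none to 32128. For each gene the row with the highest mean was kept, and tests took genes whose mean exceeded the 30th percentile over rows. limma 3.58.1 in R 4.3.3 (lmFit, eBayes) fitted 4 group means to all 8 arrays, with 4 residual and 3.43 prior degrees of freedom, two-sided, with Benjamini-Hochberg adjustment over 12734 genes and calls below 0.05. An exact permutation test of 2 arrays against 2 cannot give a p below 0.333, and the number of arrays limits the precision. On simulated arrays of 12734 genes, the fit recovered 12.8% of changes of 0.5 log2, 86.4% of 1 and 98.4% of 1.5 for shSIRT6 against scramble in MM1.S. In NCI-H929 it recovered 8.2%, 80.8% and 87.9%, and between the lines on scramble arrays 5.33%, 69.6% and 92.9%. The simulated noise was independent, with variances drawn from the fit's own prior, and only a small set of genes was changed. Recovery on the real arrays may therefore differ.

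Groups came from the titles and from the line and condition labels. Same-numbered arrays of a line were not paired: deviations from the group means correlated at 0.08 in MM1.S and −0.00108 in NCI-H929. Genes named besides the members are SIRT6, FGFR3, up to 5 called genes by lowest p for each pathway list and contrast, and the 3 nearest profiles of the 2 members with the lowest p over the groups. The members and lists were chosen with earlier results of these data known. Promoters came from RefSeq on GRCh38.p14. Alternatives changed the normalization, filter, rows per gene, variance model, arrays in the fit, replicate block and single arrays.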

Additional observations from a re-analysis of the deposited data

Results flagged for a closer look

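In the rows used, for 2 members every array moved one way with shSIRT6 in MM1.S and the opposite way in NCI-H929. DUSP4 was higher on both shSIRT6 arrays of MM1.S and lower on both of NCI-H929, and the difference of the effects, −0.96 on the log2 scale, did not pass the test (limma, adjusted p = 0.083; 0.00328 to 0.289 over 16 alternatives). DUSP5 had the same pattern with a difference of −0.60 (adjusted p = 0.189; 0.00383 to 0.429 over 16 alternatives). These are values of the gap already described, and with 2 arrays a group no array could be tested as standing apart. In the DUSP5 row used, the closest MM1.S arrays of the constructs read 9.28 (scramble) and 9.31 (shSIRT6). In the second DUSP5 row the MM1.S arrays overlapped, with 6.19 and 6.18 for scramble and 6.16 and 6.45 for shSIRT6.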

How the results depend on the processing

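Between the lines, the number of feedback genes called stayed within 6 to 7 on the scramble arrays and 5 to 6 on the shSIRT6 arrays over 17 alternatives. For shSIRT6 against scramble it was 0 except where the prior variance followed the level, with 3 in MM1.S, 1 in NCI-H929, 2 for the mean of the lines and 2 for the difference of effects, and with the stricter filter, with 2 in MM1.S. In the 8 fits without 1 array each it was 0 to 0 for all 4 of these comparisons.

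Numbers of all genes called moved most for the hairpin. From 169 in MM1.S they went to 953 with the variance trend, 314 with the stricter filter, 0 with only the arrays compared and 0 with the replicate block, and they lay between 0 and 84 without single arrays. From 3 in NCI-H929 they went to 194 with the trend and to 0 with quantile or cyclic loess normalization, no filter, averaged rows, robust eBayes, only the arrays compared and each fit without 1 array. From 11 for the mean they went to 911 with the trend, 98 with the stricter filter, 5 with cyclic loess, 4 with quantile normalization and 0 without single arrays. From 26 for the difference of effects they went to 430 with the trend and 2 to 6 without single arrays. The replicate block gave 0 for all of these; as the numbers do not pair the arrays, a call lost there is not read as a weaker effect. For the cascade list on the scramble arrays, 2 to 6 genes were called higher and 2 to 5 lower.

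Signs turned for values that had not passed the test. For SPRY2 in NCI-H929 cyclic loess gave −0.0605 and quantile normalization −0.0356. Leaving out 1 array each, SPRY2 ran from −0.235 to 0.195 in MM1.S, −0.155 to 0.185 in NCI-H929, −0.11 to 0.105 for the mean and −0.18 to 0.25 for the difference. ETV4 ran from −0.015 to 0.325 in MM1.S and −0.1475 to 0.0225 for the mean, SPRY4 from −0.44 to 0.04 and SIRT6 from −0.395 to 0.045 for the difference, and FGFR3 from −0.075 to 0.255 in MM1.S. Of 1471 values of named genes under alternatives, 1409 kept their direction and side of the threshold. With 2 arrays a group, the lone array left in a group was assumed to vary like the others. SPRY2 did not pass the stricter filter. The causes of these shifts were not tested.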
